A study of Mus musculus with 4 samples.

Results

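The matricellular genes of the array were *Ctgf*, *Postn*, *Sparc*, *Spock1*, *Spp1*, *Tgfbi*, *Thbs1*, *Thbs2*, *Thbs3* and *Tnc*, 10 of the 84 genes with deposited values. They were grouped by what they encode, with earlier results of these data known. The deposited table names wells only, and each gene was read from the well given to it by the alphabetical layout of the array: B07 for *Ctgf*, F05 for *Postn*, F10 for *Sparc*, F11 for *Spock1*, F12 for *Spp1*, G02 for *Tgfbi*, G03 for *Thbs1*, G04 for *Thbs2*, G05 for *Thbs3* and G09 for *Tnc*. The names therefore rest on the layout and not on the table.

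The genes were measured in osteoblasts (OBs), the cells that lay down bone, from 4-day-old mice of both sexes carrying floxed *Vegf* alleles (Vegffl/fl). OBs of each sex received adenovirus with Cre-recombinase and GFP, which gave *Vegf*-deficient cells (OBVEGFKO), or adenovirus with GFP alone, which gave the *Vegf*-expressing controls (WT). The WT cells thus carried the same floxed alleles and had also been exposed to virus and GFP. Cre came from the virus and was not restricted to OBs, and how many animals stood behind a culture is not given in the sources used here. Cells spent 24 h in medium with 1% FBS, 500 ng RNA was reverse transcribed, and 1 cDNA per group was run. With n = 1 in each of the 4 groups, every difference below compares single cultures, has no error between replicates and was not tested.

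Matricellular proteins are secreted into the extracellular matrix (ECM), where they bind collagen, growth factors and cell-surface receptors and adjust how cells adhere, signal and mineralise the matrix, without being main load-bearing fibres themselves. Bone is rich in them: osteonectin (SPARC) and osteopontin (SPP1) are classical proteins of mineralised matrix, and periostin (POSTN) takes its name from the periosteum. VEGF, an angiogenic factor made by OBs, was deleted to ask whether it controls the expression of ECM genes in male and female cells.

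The readout of the array is the cycle threshold (Ct), the number of PCR cycles needed for a product to reach a set fluorescence, so that a Ct lower by 1 cycle stands for about 2-fold more template. Ct depends on the primers of each assay, and levels of different genes are therefore not compared here; the summed level of a marker list is followed only from culture to culture. No Ct exceeded 35, which was read as a limit, and 76 wells were under 35 in all 4 cultures, the 10 matricellular genes among them. Housekeeping wells were not analysed here. Differences are given as deposited Ct and as log2 differences relative to a reference, the mean Ct of the 66 other wells under 35 in all cultures. Of these reference wells, E01 read 13.67 in female OBVEGFKO cells against 28.83 to 31.97 in the other cultures, and G06 read 30.02 in female WT cells against 19.30 to 22.39. Leaving these 2 wells out of the reference, a choice made after seeing the data, shifts every log2 difference of a comparison by the same amount: by 0.34 between OBVEGFKO and WT in female cells, −0.01 between OBVEGFKO and WT in male cells, 0.11 from female to male WT cells and −0.24 from female to male OBVEGFKO cells. Values without E01 and G06 are given beside the others except for male OBVEGFKO against male WT cells, where the shift is small. Each culture enters several of the comparisons, which are therefore not independent of each other. Equal RNA mass was used, and in such bulk RNA fewer cells of a type and less RNA per cell cannot be told apart. Among the markers of other cells, the 4 leukocyte genes *Itgal*, *Itgam*, *Itgax* and *Itgb2* had a summed level, with the reference without E01 and G06 set at 1, of 7.06 and 6.55 in female and male WT cells and of 11.2 and 10.4 in female and male OBVEGFKO cells. This sum is weighted to the assay with the lowest Ct, *Itgb2*, and the 4 genes differed. In female OBVEGFKO against WT cells the log2 differences relative to the reference were 0.41 for *Itgb2*, 0.62 for *Itgax*, −0.30 for *Itgal* and −0.32 for *Itgam*, or 0.75, 0.96, 0.04 and 0.02 without E01 and G06, and for the male cultures they were 0.72, 0.91, 1.18 and 0.44. The epithelial marker *Cdh1* had a Ct of 33.59 in female WT and 29.58 in female OBVEGFKO cells, and went from the limit of 35 in male WT to 28.85 in male OBVEGFKO cells, a difference of at least 6.15 cycles where the median well differed by 2.84. The part of these cells in the differences below was not tested. *Col1a1*, the main collagen of bone and a marker of OBs, had a Ct of 15.19 to 18.87.

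The sequences around the annotated starts of *Postn*, *Sparc* and *Spock1* are shown because these were the genes that lay at least 2-fold from the reference in any comparison. They are from RefSeq (GRCm38.p6), span 250 bases before to 50 bases after the annotated start, and run 5′ to 3′ on the strand of the gene, with *Postn* at chr3:54359017-54359316 (+), *Sparc* at chr11:55420031-55420330 (−) and *Spock1* at chr13:57908283-57908582 (−). Capitals mark matches, on either strand, to any of 5 motifs: the TATA box (TATAAA), the RUNX core (TGTGGT), the AP-1 site (TGANTCA), the TEAD core (CATTCC) and the HIF core (ACGTG).
*Postn*: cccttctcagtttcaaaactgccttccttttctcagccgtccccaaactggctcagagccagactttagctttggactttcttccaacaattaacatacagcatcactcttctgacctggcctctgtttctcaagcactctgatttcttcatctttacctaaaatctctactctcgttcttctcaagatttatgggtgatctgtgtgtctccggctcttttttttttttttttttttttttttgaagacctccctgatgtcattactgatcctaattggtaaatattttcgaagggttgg
*Sparc*: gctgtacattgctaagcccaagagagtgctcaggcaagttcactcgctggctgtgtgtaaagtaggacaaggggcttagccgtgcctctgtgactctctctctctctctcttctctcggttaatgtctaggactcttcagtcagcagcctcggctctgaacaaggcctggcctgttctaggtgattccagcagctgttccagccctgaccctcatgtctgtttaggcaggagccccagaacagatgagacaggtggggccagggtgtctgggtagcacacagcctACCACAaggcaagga
*Spock1*: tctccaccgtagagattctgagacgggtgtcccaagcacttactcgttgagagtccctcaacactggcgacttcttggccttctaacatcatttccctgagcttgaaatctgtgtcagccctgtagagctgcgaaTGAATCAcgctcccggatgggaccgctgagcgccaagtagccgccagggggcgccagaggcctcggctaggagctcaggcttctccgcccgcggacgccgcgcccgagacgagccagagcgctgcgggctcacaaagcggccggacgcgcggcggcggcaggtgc

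The *Spock1* window held 1 match to the AP-1 pattern TGANTCA, with the letters TGAATCA, at position −115 from the start. The *Sparc* window held 1 RUNX match, at position 36, on the opposite strand. The *Postn* window held none of the 5 motifs. For each matricellular gene, only the window at its outermost annotated start was searched. Over all 32851 windows of the same length, 13.6% held a TATA box, 16.8% a RUNX core, 7.81% an AP-1 site, 14.7% a TEAD core and 19.6% a HIF core. Of the 10 genes, 8 had a window in the table, and 3 of the 8 held the letters of the TATA box anywhere in the window, 2 a RUNX core, 1 an AP-1 site, and 0 a TEAD or HIF core. The TATA letters lay at −211 in *Spp1*, at −126 in *Tnc* and, on the opposite strand, at −126 in *Thbs2*. *Ctgf* and *Thbs1* had no entry. A match to these short letters is a description of the window only.

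Deletion of *Vegf* was accompanied by a lower Ct for all 10 genes, whichever sex was compared. Female pairs differed by 2.45 to 6.34 cycles, with a median of 3.225, and male pairs by 2.41 to 4.68 cycles, with a median of 2.74. This direction was that of the array as a whole. A Ct lower by at least 1 cycle was found in 10 of the 10 genes and in 100% of the 77 wells under 35 in both cultures, in either sex, and the median of these 77 wells was 3.28 cycles for the female and 2.84 for the male pair. The genes are described below by how far each departed from this shared shift. The reference consists of other wells of the same array, so a shift common to the array is removed from the log2 differences. The paper instead normalised to housekeeping genes, and reports *Sparc*, *Spp1* and *Thbs1* as upregulated after deletion, whichever the sex. Relative to the reference used here, the sign was the opposite for *Sparc* and *Spp1* in both sexes and for *Thbs1* in female cells.

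**Figure D1:**
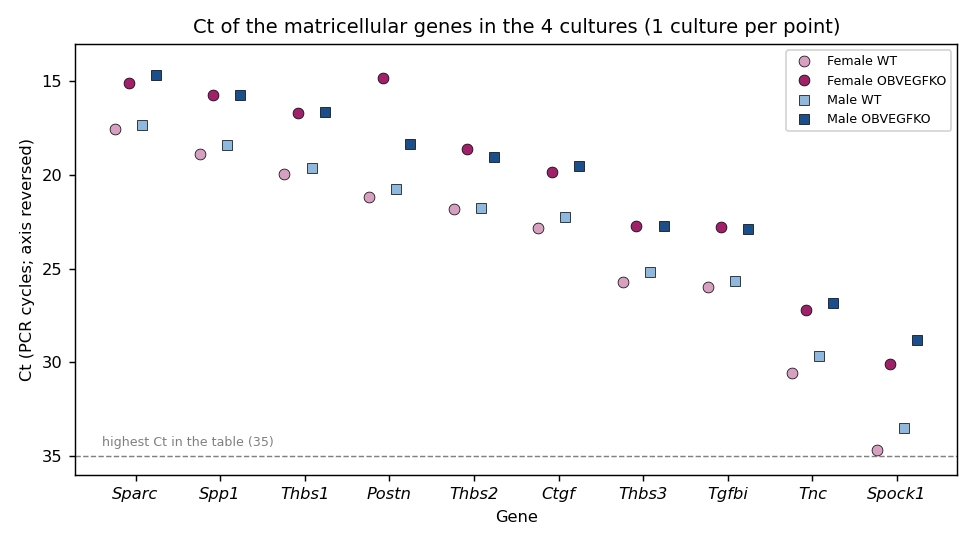
Ct in PCR cycles (reversed axis, more template at the top) of each matricellular gene in the WT and OBVEGFKO cultures of each sex, 1 point per culture with no error bars, ordered by the Ct in female WT cells. The OBVEGFKO points lie above the WT points for each of the 10 genes, *Postn* has its highest point (14.84) in the female OBVEGFKO culture, and *Spock1* starts next to the limit of 35.

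Relative to the reference, the 10 genes had a median log2 difference between OBVEGFKO and WT of −0.42 in female cells, with 2 genes higher and 8 lower, against −0.37 for the 77 wells, with 20 higher and 57 lower. Without E01 and G06 these medians were −0.08 and −0.03, with 3 genes higher and 7 lower and 38 wells higher and 39 lower. In male cells the median was −0.18 for the 10 genes, with 2 higher and 8 lower, and −0.08 for the 77 wells, with 31 higher and 46 lower. At least 2-fold from the reference, 1 gene was higher (*Postn*) and 1 lower (*Sparc*) in female cells, where 5.19% and 11.7% of wells were. In male cells 1 was higher (*Spock1*) and 0 lower, where 6.49% and 1.3% of wells were. Without E01 and G06, 2 genes were at least 2-fold higher in female cells, *Postn* and *Spock1*, and 0 were 2-fold lower, where 7.79% and 2.6% of wells were.

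**Figure D2:**
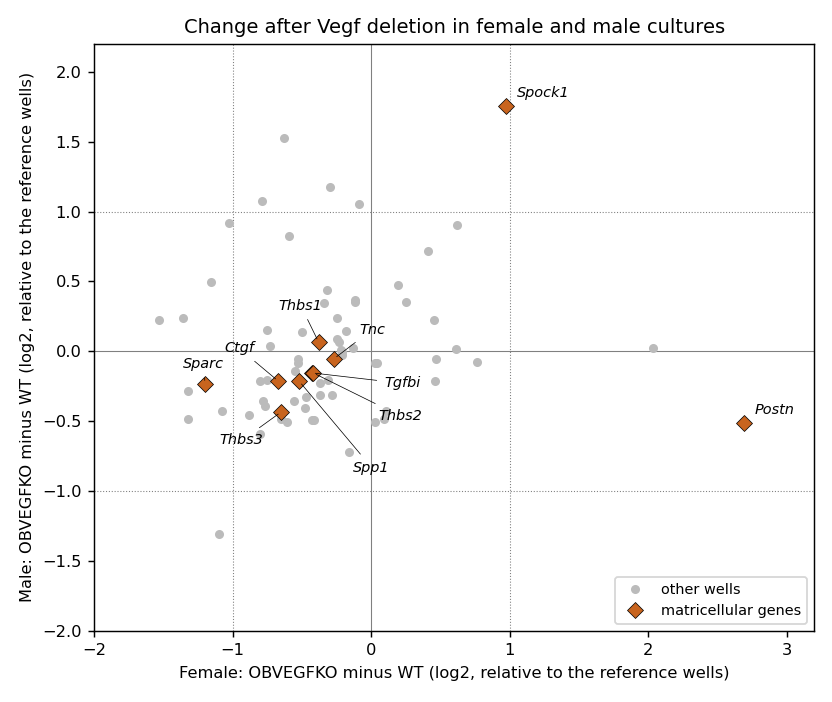
Each point is a well under 35 in all 4 cultures, placed by the log2 difference between OBVEGFKO and WT relative to the reference wells in female (x axis) and male cells (y axis), with matricellular genes as diamonds and dotted lines at 2-fold. *Spock1* is far up in male cells (1.76) and near the 2-fold line in female cells (0.97), *Postn* is far to the right (2.69) but below 0 in male cells (−0.51), the other matricellular genes lie in the cloud of other wells, and wells E01 and G06 lie beyond the right edge.

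*Postn* encodes periostin, a collagen-binding protein of periosteum, tendon and ligament. From WT to OBVEGFKO its Ct went from 21.18 to 14.84 for the female cultures and from 20.74 to 18.33 for the male cultures. The WT cultures were close, and the female OBVEGFKO culture stood apart from the other three. These are differences of 6.34 and 2.41 cycles. Relative to the reference *Postn* was 6.46-fold higher in female OBVEGFKO cells (log2 2.69, or 3.03 without E01 and G06) and 1.43-fold lower in male OBVEGFKO cells (log2 −0.51), the third highest of 77 wells in female cells and the fifth lowest of 77 in male cells. Subtracting the female from the male effect gave −3.21 (log2), or −3.56 without E01 and G06.

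Of the wells on either side of *Postn*, 1 was also unlike the other cultures. This well, F06, which the layout gives to *Sele*, the selectin of activated endothelium, read 15.65 in the female OBVEGFKO culture and 35 in the 3 other cultures. Of the other endothelial markers, *Pecam1*, in the well on the other side of *Postn*, was 2.55 and *Selp* 3.49 cycles lower after deletion in the female cultures, where the median well was 3.28 cycles lower. The part of endothelial cells in the value of *Postn* was not tested. The largest differences in Ct between female WT and female OBVEGFKO cells were those of F06 (at least 19.35 cycles), E01 (18.30), G06 (10.72) and F05, the well of *Postn* (6.34). In the other 80 wells the female difference was 0 to 5.68 cycles. In male cells the same 4 wells differed by 0, 2.73, 2.23 and 2.41 cycles, where the 0 of F06 is the limit of 35 in both cultures and measures no difference. With 1 well per gene and culture, the repeatability of these values was not tested.

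**Figure D3:**
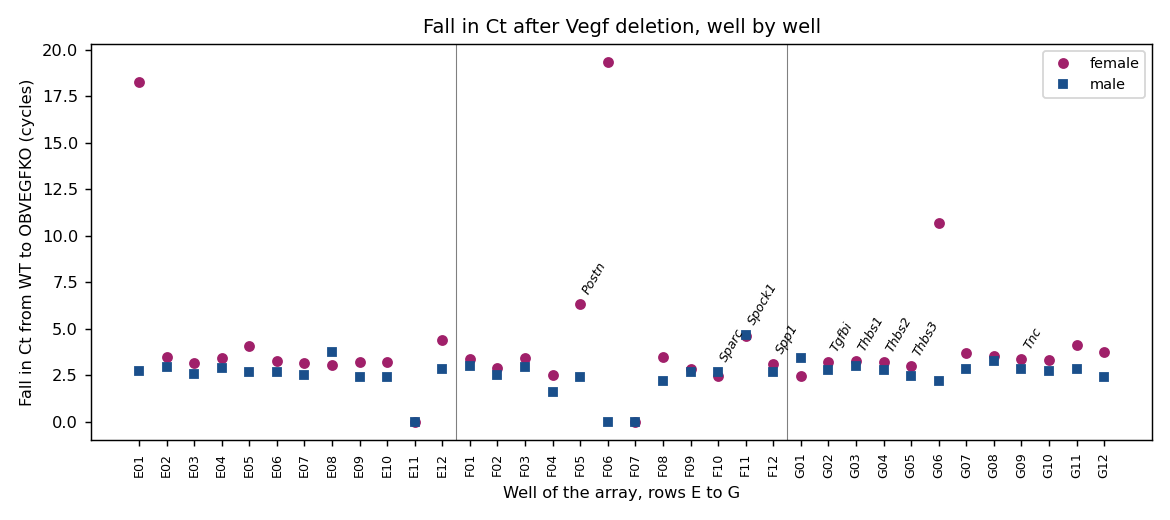
Fall in Ct from WT to OBVEGFKO, in cycles, for the wells of rows E to G in array order, with female cells as circles and male cells as squares, 1 culture pair each. Female values of 18.30, 19.35 and 10.72 cycles in E01, F06 and G06 and of 6.34 in the well of *Postn* stand above their male values, while *Spock1* has 4.62 and 4.68 cycles in female and male cells.

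*Sparc* and *Spp1* encode the acidic, mineral-associated proteins osteonectin, which binds collagen and calcium, and osteopontin, which binds hydroxyapatite and integrins. The Ct of *Sparc* went from 17.52 in WT to 15.07 in OBVEGFKO cells for females and from 17.33 to 14.64 for males. The OBVEGFKO values were thus lower by 2.45 and 2.69 cycles, which stands for more template. The values relative to the reference say only how *Sparc* compared with the other wells. Since most wells differed by more, *Sparc* was 2.30-fold lower than WT relative to the reference in female OBVEGFKO cells (log2 −1.20) and 1.18-fold lower in male OBVEGFKO cells (log2 −0.23). Without E01 and G06 the female value was −0.86, short of 2-fold, and it was the fifth lowest of 77 wells. The difference between the sexes in this effect, male minus female, was 0.965 on the log2 scale, or 0.61 without E01 and G06.

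*Spp1* went from a Ct of 18.85 in WT to 15.72 in OBVEGFKO cells for females and from 18.41 to 15.70 for males. Its log2 difference from WT relative to the reference was −0.52 in female cells, or −0.18 without E01 and G06, and −0.21 in male cells. *Spp1* ranked 49 of 77 wells from the highest in female cells and 47 in male cells, so that its change was that of a middle well of the array. Both proteins are made by cells other than OBs too, and the part of the leukocytes, whose markers are given above, was not tested.

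*Spock1* encodes testican 1, a proteoglycan of the SPARC family. Its assay had the highest Ct of the 10, which went from 34.68 in WT to 30.06 in OBVEGFKO cells for females and from 33.51 to 28.83 for males. The differences of 4.62 and 4.68 cycles were nearly the same. Relative to the reference this was 1.96-fold higher in female (log2 0.97, or 1.31 without E01 and G06) and 3.38-fold higher in male OBVEGFKO cells (log2 1.76), ranks 5 and 1 of the 77 wells under 35 in both cultures. These ranks leave out wells at the limit. Among those were *Cdh1*, at least 6.15 cycles lower in the male pair, and F06, at least 19.35 cycles lower in the female pair. Both OBVEGFKO values of *Spock1* were above both WT values. The scatter of wells with little template is given for comparison. Among wells other than the 10 genes, those 18 whose highest Ct lay between 30 and 35 had a median absolute departure from the array median of 0.76 for the female pair and 0.41 for the male pair. The corresponding figures for 34 abundant wells, never above 26, were 0.19 and 0.255. In the 5 scarcest of the 18, whose highest Ct lay between 33 and 35, the median absolute departure was 0.66 for the female and 0.27 for the male pair. The departures in these 5 wells ran from −0.66 to 2.40 for the female and −0.32 to 1.00 for the male pair, and those in all 18 from −1.16 to 15.02 and from −1.22 to 1.61, while that of *Spock1* was 1.34 and 1.84.

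The thrombospondins are calcium-binding glycoproteins, of which THBS1 and THBS2 inhibit angiogenesis and THBS1 activates latent TGFβ, while THBS3 belongs to the pentameric branch expressed in skeletal tissue. *Thbs1* went from a Ct of 19.96 in WT to 16.69 in OBVEGFKO cells for females and from 19.61 to 16.62 for males. For *Thbs2* the Ct went from 21.82 to 18.59 and from 21.78 to 19.01. For *Thbs3* it went from 25.73 to 22.73 and from 25.20 to 22.71. *Thbs1* and *Thbs2* stayed near the middle of the array in female cells, at ranks 41 and 43 of 77 from the highest, and were at ranks 25 and 42 in male cells. *Thbs3* was lower, at rank 58 in female and 63 in male cells. The log2 differences relative to the reference were −0.38, −0.42 and −0.65 for *Thbs1*, *Thbs2* and *Thbs3* in female cells, or −0.04, −0.08 and −0.31 without E01 and G06, and 0.07, −0.15 and −0.43 in male cells.

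*Ctgf*, now named *Ccn2*, encodes connective tissue growth factor, a CCN protein induced by TGFβ, and *Tgfbi* encodes a TGFβ-induced adhesion protein related to periostin. *Ctgf* went from a Ct of 22.84 in WT to 19.86 in OBVEGFKO cells for females and from 22.22 to 19.51 for males. Its log2 difference from WT was −0.67 in female cells, or −0.33 without E01 and G06, and −0.21 in male cells. *Tgfbi* went from 25.97 to 22.75 and from 25.65 to 22.88, with log2 differences of −0.43 in female cells, or −0.09 without E01 and G06, and −0.15 in male cells. In contrast to *Postn*, its relative *Tgfbi* was thus near the middle of the array in both sexes, at rank 44 of 77 in female and 42 in male cells. *Tnc* encodes tenascin C, a hexameric glycoprotein of tendon, periosteum and healing tissue. The Ct of *Tnc* went from 30.59 in WT to 27.21 in OBVEGFKO cells for females and from 29.68 to 26.81 for males, and its log2 differences were −0.27 in female cells, or 0.07 without E01 and G06, and −0.05 in male cells.

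With *Postn* and *Spock1* left aside, the other 8 genes spanned 0.93 on the log2 scale in female cells, from *Sparc* to *Tnc*, and 0.50 in male cells, from *Thbs3* to *Thbs1*. Set against both sexes together, 1 gene (*Spock1*) had both OBVEGFKO levels above both WT levels relative to the reference, as 9.21% of the 76 wells did, or 14.5% without E01 and G06. Both OBVEGFKO levels were below both WT levels in 6 genes, *Ctgf*, *Sparc*, *Spp1*, *Tgfbi*, *Thbs2* and *Thbs3*, and in 32.9% of wells. Without E01 and G06 this held for 4 genes, *Sparc*, *Spp1*, *Tgfbi* and *Thbs3*, and 22.4% of wells. No replicate shows how far a single culture strays.

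Receptors and matrix partners of these proteins on the array were *Cd44*, *Col1a1*, *Fn1*, *Itga5*, *Itgav*, *Itgb1* and *Itgb3*. In female OBVEGFKO cells 0 of the 7 were at least 2-fold higher than in WT and 1 was at least 2-fold lower relative to the reference, where 5.19% and 11.7% of wells were, or 7.79% and 2.6% without E01 and G06. Their median log2 difference was −0.23 against −0.37 for the 77 wells, or 0.11 against −0.03 without E01 and G06. The lower one was *Itgb3*, the β3 subunit of the osteopontin receptor αvβ3, at −1.53, or −1.19 without E01 and G06, with Ct values of 30.33 in female WT and 28.21 in female OBVEGFKO cells. In male cells 1 of the 7 was at least 2-fold higher and 0 lower, where 6.49% and 1.3% of wells were, with a median of 0.15 against −0.08 for the 77 wells. This was *Itgav*, the αv subunit, at 1.06, with Ct values of 25.71 in male WT and 21.73 in male OBVEGFKO cells. In the other sex the values were −0.09 for *Itgav* in female cells, or 0.25 without E01 and G06, and 0.23 for *Itgb3* in male cells. The WT cultures already differed, with *Itgav* at −0.77 and *Itgb3* at −1.49 from female to male WT cells, or −0.65 and −1.37 without E01 and G06. In female and male OBVEGFKO cells the Ct was close, at 21.81 and 21.73 for *Itgav* and 28.21 and 28.24 for *Itgb3*.

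Between the sexes, male and female WT cells were compared first. The Ct was lower in male WT cells in 10 of the 10, by 0.04 cycles for *Thbs2* to 1.17 cycles for *Spock1*, as in 85.5% of the 76 wells, and the median of 0.44 cycles was that of the 76 wells. Relative to the reference the median log2 difference from female to male WT cells was 0.01, or 0.13 without E01 and G06. None of the 10 was 2-fold higher or lower, as 3.95% and 7.89% of wells were, or 5.26% and 6.58% without E01 and G06. The lowest was *Thbs2* at −0.39 and the highest were *Tnc* at 0.48 and *Spock1* at 0.74, or −0.27, 0.60 and 0.86 without E01 and G06. *Postn* and *Spp1* each stood at 0.01, or 0.13. Of the endothelial markers, *Pecam1* was at −2.17 and *Selp* at −0.76 from female to male WT cells, or −2.05 and −0.64 without E01 and G06, and between the OBVEGFKO cultures they were at −2.37 and −1.32, or −2.61 and −1.56. The part of endothelial cells in the differences between the sexes was not tested.

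Between the OBVEGFKO cultures the interquartile range of the log2 differences was 0.48 for the 10 genes and 0.715 for all wells, where between the WT cultures it was 0.27 and 0.51. Relative to the reference the median log2 difference from female to male cells was 0.34 for the 10 genes and 0.30 for the 79 wells, or 0.10 and 0.06 without E01 and G06. *Spock1* was 2.88-fold higher in male OBVEGFKO cells (log2 1.53, or 1.29 without E01 and G06), where 12.7% of wells were at least 2-fold higher, or 6.33% without E01 and G06. *Postn* was 9.14-fold lower (log2 −3.19, or −3.43), where 6.33% of wells were at least 2-fold lower, or 7.59%, and its Ct was 18.33 in male against 14.84 in female cells. *Sparc*, *Tnc* and *Ctgf* were the next highest of the 10 in male cells, at 0.73, 0.70 and 0.65, or 0.49, 0.46 and 0.41 without E01 and G06. *Thbs2* was lower in male OBVEGFKO as in male WT cells, at −0.12, or −0.36 without E01 and G06. *Spp1* had Ct values of 15.70 and 15.72 and *Thbs3* of 22.71 and 22.73, so that these 2 genes were level before any scaling.

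**Figure D4:**
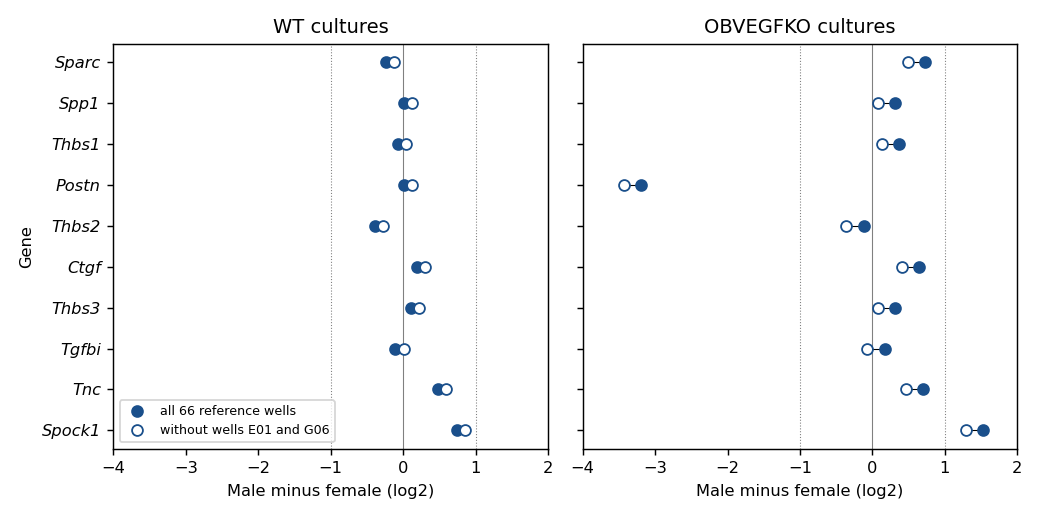
Log2 difference, male minus female, of each matricellular gene in WT cultures (left) and OBVEGFKO cultures (right), 1 culture per group with no error bars, relative to all 66 reference wells (filled) or without wells E01 and G06 (open), with dotted lines at 2-fold. In WT cultures the filled points run from −0.39 to 0.74, and in OBVEGFKO cultures *Postn* is at −3.19 and *Spock1* at 1.53.

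The effect of *Vegf* deletion, taken as the male minus the female log2 difference, had a median of 0.29 over the 10 genes and of 0.285 over the 76 wells, and 9 genes and 75% of wells had the larger value in male cells. Without E01 and G06 the medians were −0.06 and −0.07, and 4 genes and 42.1% of wells were larger in male cells. A difference of at least 2-fold was found in 1 of the 10 genes, *Postn*, and in 18.4% of the 76 wells. *Sparc* at 0.965 and *Spock1* at 0.785 came next, and were 0.61 and 0.43 without E01 and G06. The sign for *Spp1*, *Tgfbi*, *Thbs2*, *Thbs3* and *Tnc* turned when these wells were left out, and that for *Postn*, *Ctgf*, *Sparc*, *Spock1* and *Thbs1* did not. Without any normalisation 2 of the 10 genes were positive, *Sparc* at 0.24 and *Spock1* at 0.06, as were 21.1% of the 76 wells.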

How the data were processed

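Ct values of 84 wells in 4 OB cultures, 1 cDNA per group, were read from the table that the authors deposited, as cycles to 2 decimals and not normalised. The study used an Extracellular Matrix and Adhesion Molecule RT2 Profiler array (PAMM-013Z) with SYBR Green on a StepOnePlus system. The rule for the threshold and a limit of detection are not given in the sources used here. A second deposited table holds fold changes, which the authors calculated by the ΔΔCt method after normalising to housekeeping genes, and was not used. The plan to follow that normalisation could not be met, since the Ct table held 0 housekeeping wells. The level of a gene was the mean Ct of the 66 wells that are not matricellular genes and are under 35 in all cultures, minus its Ct, at an efficiency of 2 per cycle, and differences between cultures are log2 values. A threshold of 2-fold was used for counts, over wells under 35 in both cultures. With 1 culture per group no test was made. All 10 genes are named, with other genes only where a result turned on them.

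The genes, the lists of partners and markers and the alternatives were chosen with earlier results of these data known. One marker of the lists is not reported here. The alternatives were no normalisation, the median Ct difference, the median Ct, wells of at most 30 or all other wells as the reference, an efficiency of 1.9, and thresholds of 1.5-fold and 4-fold. Leaving E01 and G06 out of the reference, and *Postn* out of the group, was added after seeing the data. A shift of a log2 value was treated as a move from 0.43 upwards, the scaled median absolute deviation of the reference wells between WT cells of the 2 sexes. Gene symbols were matched to RefSeq tables of GRCm38.p6 for the start-site windows only. The calculation was tested on simulated data. Python 3.11.15, numpy 2.4.6, pandas 2.3.3 and matplotlib 3.10.9 were used.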

Additional observations from a re-analysis of the deposited data

Results flagged for a closer look

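Relative to the reference, 2 genes had effects of *Vegf* deletion with opposite signs in male and female cells, each from 1 culture pair per sex, as did 44.7% of the 76 wells, and the difference was not tested. For *Postn* the male minus female difference in effect was −3.205 on the log2 scale, with 2.69 in female and −0.51 in male cells. For *Thbs1* it was 0.445, with −0.38 in female and 0.07 in male cells. Without wells E01 and G06 in the reference, the values of *Thbs1* were −0.04 and 0.05, both smaller than the median departure of abundant wells (0.19 in female and 0.255 in male cells), and those of *Postn* were 3.03 and −0.53. *Tnc* then also had opposite signs, at 0.07 and −0.07, so that 3 of the 10 genes and 38.2% of wells did.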

How the results depend on the processing

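The reference moved the results most. Without normalisation the median log2 difference of the 10 genes between OBVEGFKO and WT was 3.225 in female and 2.74 in male cells, 10 genes and 100% of the 77 wells were at least 2-fold higher in each, and the 8 genes below 0 in either sex turned positive, among them *Sparc* in female cells, from −1.20 to 2.45. One gene, *Spock1*, was then 2-fold higher in male WT cells (1 against 0, with 14.5% of wells at least 2-fold away), and the median male minus female difference in effect was −0.435. It was 0.635 with the median Ct of each culture and 0.56 with all other wells as the reference, against 0.29. It was 0.005 with the median Ct difference and −0.08 with wells of at most 30 as the reference. With the median Ct of each culture as the reference, 4 genes in female cells and 4 between the OBVEGFKO cultures lay at least 2-fold away, against 2 and 2, with 35.1% and 27.8% of wells, against 16.9% and 19%. With all other wells as the reference, 4 genes and 25.3% of wells did between the OBVEGFKO cultures. At 1.5-fold the counts were 5 in female cells, 1 between the WT and 5 between the OBVEGFKO cultures, with 41.6%, 22.4% and 35.4% of wells. At 4-fold they were 1 in female cells, 0 in male cells and 1 between the OBVEGFKO cultures, with 5.19%, 0% and 5.06% of wells. Without *Postn*, 1 gene lay at least 2-fold away in female cells and 1 between the OBVEGFKO cultures. Of 280 values of single genes under the alternatives, 260 changed by less than 0.43 and the other 20, all without normalisation, by more. The sign turned in 21 of 40 values without normalisation and in 16 of 240 under the other alternatives. A change of reference shifts all 10 genes of a comparison by the same amount. These counts therefore repeat a few shifts and are not separate checks of each gene. A shift under 0.43 can still carry a gene across 2-fold, as for *Sparc* and *Spock1* in female cells without E01 and G06. How far a single well or culture strays was not tested, for abundant or scarce genes.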
